A study of Mus musculus with 18 samples.

Results

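Of 42017 autosomal regions at which NFIA and NFIB, transcription factors of the nuclear factor I (NFI) family, gave strong CUT&Tag summits, 532 (1.27%) held such a summit in granule neuron progenitors (GNPs) and in almost no library of hyperplasia or tumor. They were chosen by presence. The 30000 highest-scoring summits of each library (its top summits) were widened by 100 bp on each side and merged, and a region was kept when at least 3 libraries hit it. A region then counted as GNP-top when at least 5 of 6 GNP libraries, at most 1 of 6 hyperplasia libraries and at most 1 of 6 tumor libraries held a top summit in it. The choice therefore used the summits of all 18 libraries, and differences between stages at these regions are given as a description, with no test.

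NFI proteins bind DNA as dimers at a palindrome of TTGGC and GCCAA, and a single copy of either, a half-site, is bound more weakly. In the cerebellum they act in granule neuron development, where they take part in the switch from dividing progenitors to migrating neurons that form axons, dendrites and synapses. GNPs divide in the outer layer of the young cerebellum in response to Sonic hedgehog (SHH), and SHH-driven medulloblastoma arises from them. CUT&Tag uses an antibody to bring a transposase to a bound protein, so that cut fragments pile up around the protein's sites and a peak caller marks each pile by its summit.

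The study followed NFIA and NFIB in a mouse model of medulloblastoma. The groups were GNPs from cerebella of postnatal day 7, hyperplasia from postnatal day 28 and tumors from adult mice, each isolated on a Percoll gradient, with 100000 cells put into a library. There were 3 numbered preparations per stage, with 1 NFIA and 1 NFIB library under each number; no label says that libraries of a number came from the same cells. Per the series' design text the animals are a genetically engineered model, whose genotype and strain, like those of the GNP donors, are not given in the sources used here. Stage and age changed together and cannot be told apart, and no label says whether preparations came from separate animals, so that the spread between preparations may be technical. A gradient enriches cells by density and is no sort, and summits do not measure expression, so the labelled cell types could not be checked against marker expression here. A cell line that the same text mentions is not analysed here.

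The lists held 49166 to 374375 autosomal summits, and the score of the last top summit (−log10 p, from the authors' peak calling) lay between 3.46 and 9.84. Scores were therefore not compared between libraries, and ranks within a library were used (rank 1 is the highest score). Read depth is unknown, since neither reads nor coverage were used. The second NFIA library of hyperplasia stood apart. It held a top summit at 65.0% of the other regions of GNPs, whereas the other 5 hyperplasia libraries held one at 85.4% to 87.2%, and 20.4% of its top summits were tied at the last score kept. Without that library the rule gave 559 GNP-top regions. The data names of 6 libraries give the other target than their sample titles, and titles are followed throughout. Titles also carry dates, 2 that GNP and hyperplasia have in common and 3 others for tumor. No pair of libraries shared more than 0.537% of its top summit positions, so none was a copy of another.

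A small group of GNP-top regions lay at annotated promoters, and 4 of these, chosen after their values were seen, are printed among those with GNP summits in the promoter. Nfe2l1 had the most NFI half-sites, BB218582 had the summits of all 6 GNP libraries, and Nhlh2 is a gene of the granule progenitor list. Skap2 had the most GNP libraries among those whose region had no later top summit. A promoter window here runs from 250 bases before a RefSeq transcript start to 50 after it (GRCm38.p6, the assembly of mm10). Only the 250 bases before the start are printed, 5′ to 3′ on the gene's strand, with each NFI half-site (TTGGC or GCCAA, both strands searched) in capitals. The window of Nfe2l1, which encodes a transcription factor of the stress response and of proteasome gene control, is chr11:96824128-96824377 on the minus strand. BB218582 is an annotated transcript at chr2:106650365-106650614 on the minus strand, and the nearest protein-coding gene, Mpped2, lies 42747 bp away. Nhlh2, a basic helix-loop-helix factor of developing neurons, has its window at chr3:102009895-102010144 on the plus strand. Skap2, an adaptor of Src-family kinases, has its window at chr6:52012550-52012799 on the minus strand.
Nfe2l1: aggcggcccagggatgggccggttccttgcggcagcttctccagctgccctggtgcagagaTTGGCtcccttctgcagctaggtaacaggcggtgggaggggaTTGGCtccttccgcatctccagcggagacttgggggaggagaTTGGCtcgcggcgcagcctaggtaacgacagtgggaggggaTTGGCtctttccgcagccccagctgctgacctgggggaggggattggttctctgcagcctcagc
BB218582: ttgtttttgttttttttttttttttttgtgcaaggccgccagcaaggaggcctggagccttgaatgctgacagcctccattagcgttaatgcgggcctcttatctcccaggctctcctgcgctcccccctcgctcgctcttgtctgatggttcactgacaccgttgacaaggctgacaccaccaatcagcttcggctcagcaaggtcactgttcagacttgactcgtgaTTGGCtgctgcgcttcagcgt
Nhlh2: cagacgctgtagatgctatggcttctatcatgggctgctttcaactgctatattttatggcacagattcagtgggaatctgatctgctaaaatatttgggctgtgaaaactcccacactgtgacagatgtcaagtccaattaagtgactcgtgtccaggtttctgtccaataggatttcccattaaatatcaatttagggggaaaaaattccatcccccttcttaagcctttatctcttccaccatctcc
Skap2: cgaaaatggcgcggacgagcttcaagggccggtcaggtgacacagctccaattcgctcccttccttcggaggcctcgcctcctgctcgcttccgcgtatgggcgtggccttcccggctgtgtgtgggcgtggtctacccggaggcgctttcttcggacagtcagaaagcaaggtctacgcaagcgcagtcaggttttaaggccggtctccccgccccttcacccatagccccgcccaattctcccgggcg

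The Nfe2l1 window held 5 half-sites, all spelled TTGGC on the gene's strand, of which 4 stand in the printed bases, beginning at -189, -147, -105 and -64, and the fifth begins at 30 (positions count from 0 at the start site). The best top summits of 5 of the 6 GNP libraries fell in the same stretch, at -194, -179, -178, -124 and -89. Its region (chr11:96824116-96824587, inside the gene, 5617 bp from a gene end) held a top summit in all 6 GNP libraries, 1 hyperplasia library and 1 tumor library. GNP ranks there were 5390 to 18704 with a median of 7314. At BB218582 the summits of all 6 GNP libraries lay between -170 and 30, and the half-site begins at -21. At Nhlh2, 4 GNP libraries had their summit between -149 and -64, and the only half-site of the window, GCCAA, begins at 26. At Skap2, 4 GNP libraries had theirs between -188 and -56, and the window held no half-site. A half-site was present in 3 of these 4 windows. Nfe2l1 was chosen for its half-sites, so this count is not independent of the choice.

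In all, 23 of the 512 GNP-top regions outside chromosome 18 (4.49%) overlapped a promoter window, against 28.4% of the other regions with a top summit in at least 5 GNP libraries and 19.1% of all regions. Of the 23, 18 had a GNP top summit within the window. They touched 28 windows, several of them alternative starts of 1 gene. A half-site was found in 21 of the 28 windows (75%), and in 46.7% of all 31396 autosomal windows. The full palindrome (TTGGC, any 5 bases, then GCCAA) was found in 0 of the 28 and in 0.0382% of all windows. The E-box CAGCTG, of a kind bound by basic helix-loop-helix factors, was found in 11 of the 28 (39.3%) and in 16.3% of all windows. The E-box CAGATG was found in 7 of the 28 (25%) and in 17.2% of all windows, and the GLI site GACCACCCA in 0 of the 28 and in 0.255% of all. These are letter matches in overlapping windows and carry no test. The alternative starts of Nfe2l1 and of Abhd6 repeat the same bases. So do the opposite-strand windows of C77080 and Gm12976 and, in part, those of Polr1c and Yipf3. The counts of half-sites and of CAGCTG include such repeats, so shares of windows are not shares of regions. The windows compared are all promoters, with or without an NFI region. Shares at promoters of the other GNP regions are not given here.

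Presence was unequal within the 532. All 6 GNP libraries held a top summit at 192 of them and 5 libraries at 340. No hyperplasia and no tumor library held one at 179, and 53 had all 6 GNP libraries and none of the other 12. A further 107 regions had 1 hyperplasia library and no tumor library, 130 had 1 tumor library and no hyperplasia library, and 116 had 1 of each. Per library, the share of GNP-top regions with a top summit was lowest in the first NFIA library of GNPs at 84.6%, with a median of 90.3% and a highest value of 92.5% over the 6 GNP libraries. In hyperplasia the lowest share was 3.95%, the median 7.05% and the highest 9.77%. In tumor these were 6.20%, 6.86% and 10.9%. The criterion sets this gap.

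**Figure D1:**
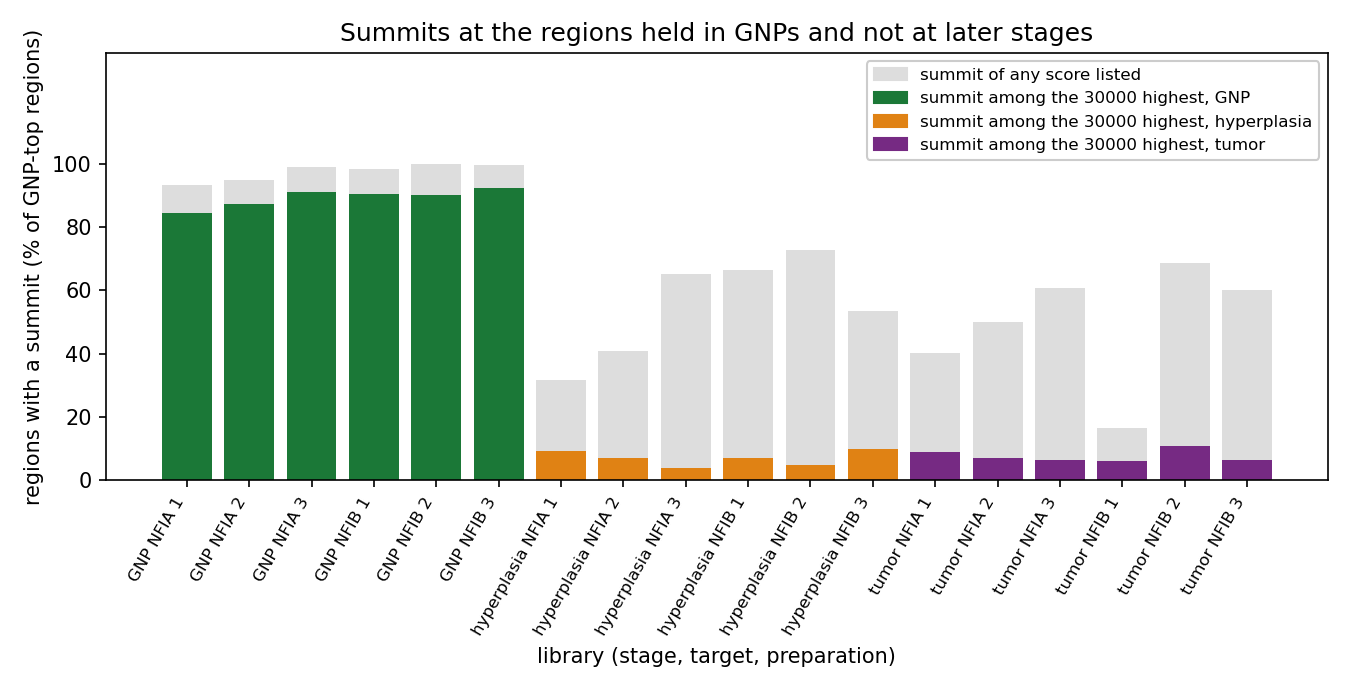
Share of the 532 GNP-top regions, in percent, with a top summit (coloured bars) and with a listed summit of any score (grey bars behind them), in each of the 18 libraries of GNP, hyperplasia and tumor. The coloured bars of GNPs reach 84.6% to 92.5% and those of the later stages at most 10.9%, while the grey bars of the later stages spread from 16.5% to 72.7%.

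Absence from the top summits was not absence from the lists, and the words lost and absent apply to the top summits only. Of the 532, 525 (98.7%) had a listed summit of some score in at least 1 of the 12 hyperplasia and tumor libraries, and 336 (63.2%) in at least 6, with a median of 6 libraries. A listed summit was missing in all 6 hyperplasia libraries at 19 regions, in all 6 tumor libraries at 27 and in all 12 libraries at 7. Those 7 lay nearest to Pkhd1, Hs6st1, Atp5g3, A230072I06Rik, Ccdc88c, Crim1 and Hif1an (named after their values were seen). At the other end, regions nearest to Zfp618, Svop, Kcnq1 and Yipf3 were listed in all 12 (also named after their values were seen). By library, a summit of any score stood at 31.8% to 72.7% of the GNP-top regions in hyperplasia (median 59.2%) and at 16.5% to 68.6% in tumor (median 55.1%). In the GNP libraries the range was 93.4% to 100%.

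Among GNP-top regions without a top summit in a given hyperplasia library, 24.8% to 71.3% had a lower listed one. The share over all regions without a top summit was 35.3% to 80.4%. In tumor libraries the shares were 11.0% to 64.8% at GNP-top regions and 24.5% to 71.9% over all regions. The GNP-top value was the lower one in all 12 libraries. GNP-top regions may hold a top summit in at most 1 library of each later stage, a limit the other regions did not have. A lower share at GNP-top regions, here and within 1 kb below, is therefore not independent of the choice. Where a library had no top summit in the region, one within 1 kb was also less frequent at GNP-top regions in each of the 12 libraries. The share was 1.37% to 5.87% in hyperplasia and 2.63% to 7.02% in tumor, against 7.02% to 11.1% and 7.18% to 12.7% over all regions without a top summit. Of the 532, 3 had a top summit outside the region but within 1 kb in at least 5 hyperplasia libraries, 4 had one in at least 5 tumor libraries, and 155 had no top summit within 1 kb in any of the 12.

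GNP-top regions ranked low among the top summits of GNPs. Their median rank, taken over GNP libraries with a top summit and then over regions, was 16982.5, against 9708.75 for the 16712 other regions with a top summit in at least 5 GNP libraries. In single GNP libraries the median rank was 15352.5 to 18015.5 at GNP-top regions and 8615 to 9062 at the others, so that the libraries did not overlap. Of regions with a median GNP rank up to 5000, 7 of 4262 (0.164%) were GNP-top. The share was 0.928% (41 of 4418) for the next 5000 ranks, then 3.19%, 6.82% and 10.1%, and 14.2% (22 of 155) for ranks above 25000. GNP-top regions were also narrower, with a median width of 413.5 bp against 553 bp. Rank and width both follow from how often and how high libraries were hit, so neither is independent of the choice.

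**Figure D2:**
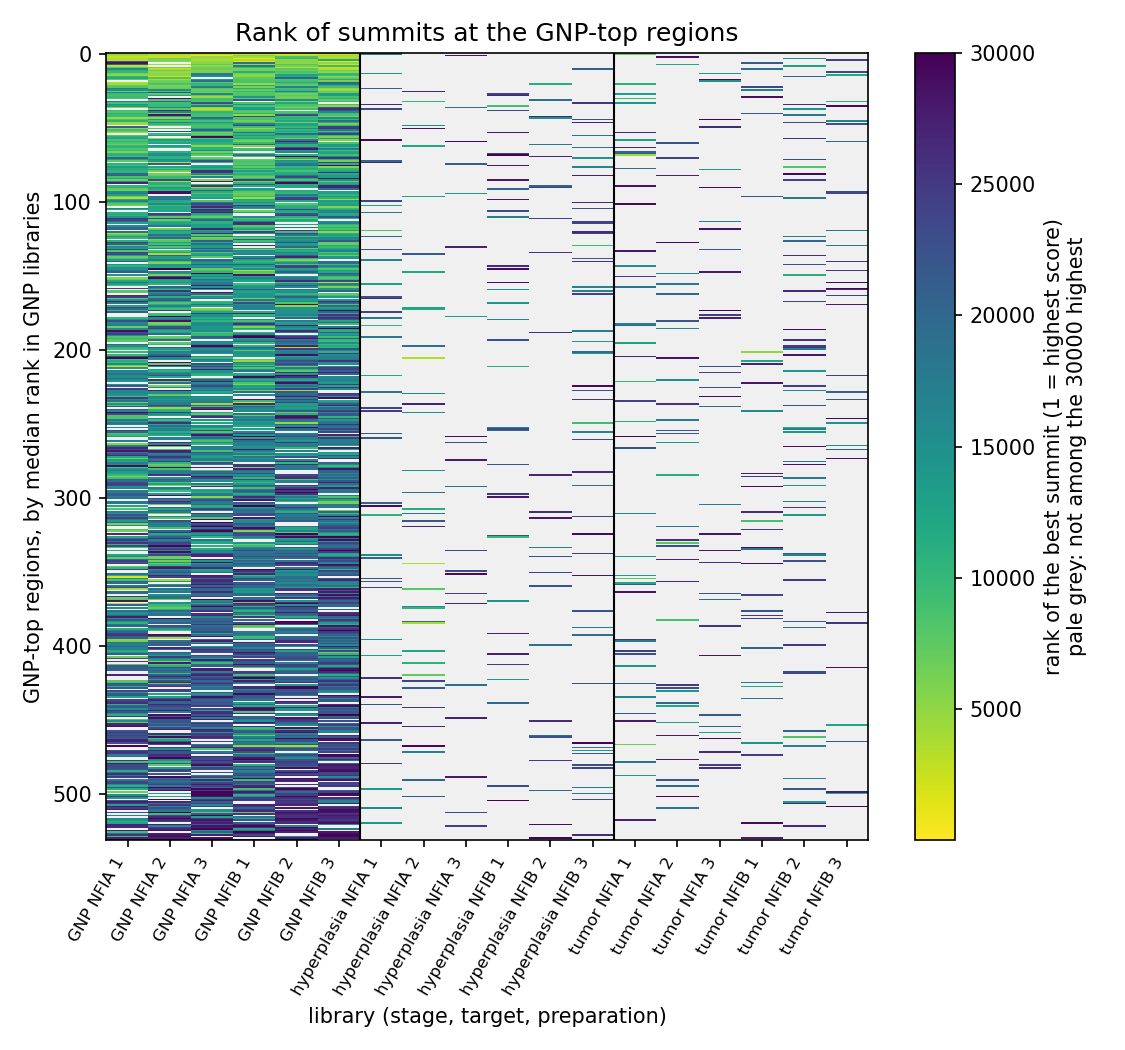
Ranks of the best top summit (colour, rank 1 highest) at the GNP-top regions in each library, with regions down the page and libraries of GNP, hyperplasia and tumor across; pale cells hold no top summit. Colour fills the 6 GNP columns, and scattered cells in the other 12 columns show the libraries that the criterion allows.

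The rule names 2 losses that share the GNP libraries. A top summit in at least 5 GNP libraries and at most 1 library of the later stage was found at 1167 regions (2.78%) for hyperplasia against GNP and at 1057 (2.52%) for tumor against GNP. The 532 GNP-top regions are in both, which makes them 45.6% of the regions lost in hyperplasia and 50.3% of those lost in tumor. By contrast, 108 regions held at least 5 GNP and at least 5 hyperplasia libraries and at most 1 tumor library, and 128 held GNP and tumor but not hyperplasia by the same limits. Regions of hyperplasia alone numbered 166 (0.395%) and those of tumor alone 178 (0.424%), and 318 (0.757%) belonged to hyperplasia and tumor but not GNP. GNP-top regions were thus the most numerous of these 6 patterns under this rule. The stages did not enter it on equal terms. GNP libraries held a top summit at 55.7% to 58.8% of all regions. The second NFIA library of hyperplasia held one at 40.7% and the first NFIB library of tumor at 49.9%. The other libraries of the later stages held one at 54.2% or more. The part of these differences in the order of the patterns was not tested.

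To see how far presence carries over to libraries the choice did not use, regions were built and chosen on 2 preparations per stage and read in the third, with at least 3 of 4 GNP libraries and at most 1 of 4 libraries of each later stage. This gave 1846 to 1904 regions per round. In the left-out GNP preparations 54.4% ± 2.72 of the chosen regions held a top summit, with 51.8%, 54.3% and 57.2% by preparation (SD, n = 3; each the mean of the NFIA and NFIB library of that number). In the left-out hyperplasia preparations the share was 18.6% ± 3.71, and in the left-out tumor preparations 19.5% ± 3.18 (SD, n = 3 each). All 3 GNP values lay above all 6 later values. Over all regions the same libraries gave 60.2% ± 2.33 for GNP, 57.5% ± 5.93 for hyperplasia and 57.3% ± 5.77 for tumor (SD, n = 3 each). Other regions with at least 3 of the 4 GNP libraries gave 86.2% ± 3.81 for GNP, 78.2% ± 6.77 for hyperplasia and 77.7% ± 7.29 for tumor (SD, n = 3 each), so that the chosen regions were found again in unused GNP libraries less often than these. The stage gap at chosen regions was thus present in unused preparations and smaller than in the libraries that chose them. No tumor library has a title date of a GNP library, so between GNP and tumor date and stage cannot be told apart. GNP and hyperplasia have their title dates in common, and the part of the date in the gap between them was not tested.

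**Figure D3:**
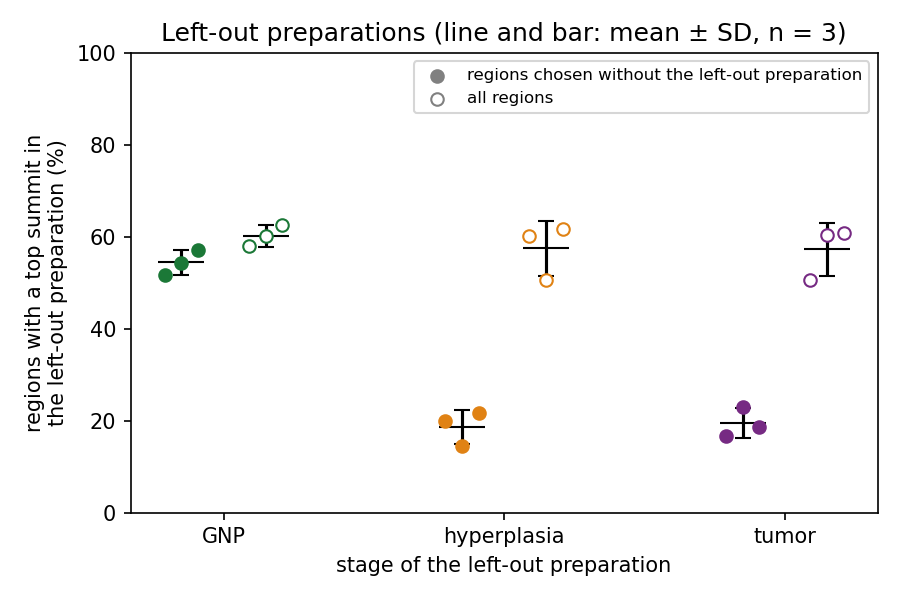
Percent of regions with a top summit in the left-out preparation, by stage; filled points are regions chosen on the other preparations, open points all regions, each point is 1 of 3 left-out preparations, and lines and bars give the mean ± SD. The filled points of GNPs lie between 51.8% and 57.2% and those of hyperplasia and tumor between 14.5% and 23.0%.

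The GNP-top regions lay away from gene ends. Within 1 kb of either end of a protein-coding gene span were 36 (6.77%, 95% Wilson interval 4.93 to 9.23), against 30.5% of the other GNP regions and 22.6% of all regions. Inside genes lay 244 (45.9%), against 38.1% of the other GNP regions, and between genes 252 (47.4%), against 31.4%. The interval treats regions as independent draws, which neighbouring regions are not. Since GNP-top regions ranked lower, the shares were also read within 6 bins of median GNP rank, and in each the share at gene ends was lower at GNP-top regions. For ranks 10001 to 15000 it was 5.97% of 134 GNP-top regions, against 30.2% of the other GNP regions, and for ranks 15001 to 20000 it was 4.48% of 201, against 27.1%. The bins at both ends held 7 and 22 GNP-top regions, of which 0% and 13.6% lay at gene ends, against 34.7% and 35.3% of the other GNP regions.

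**Figure D4:**
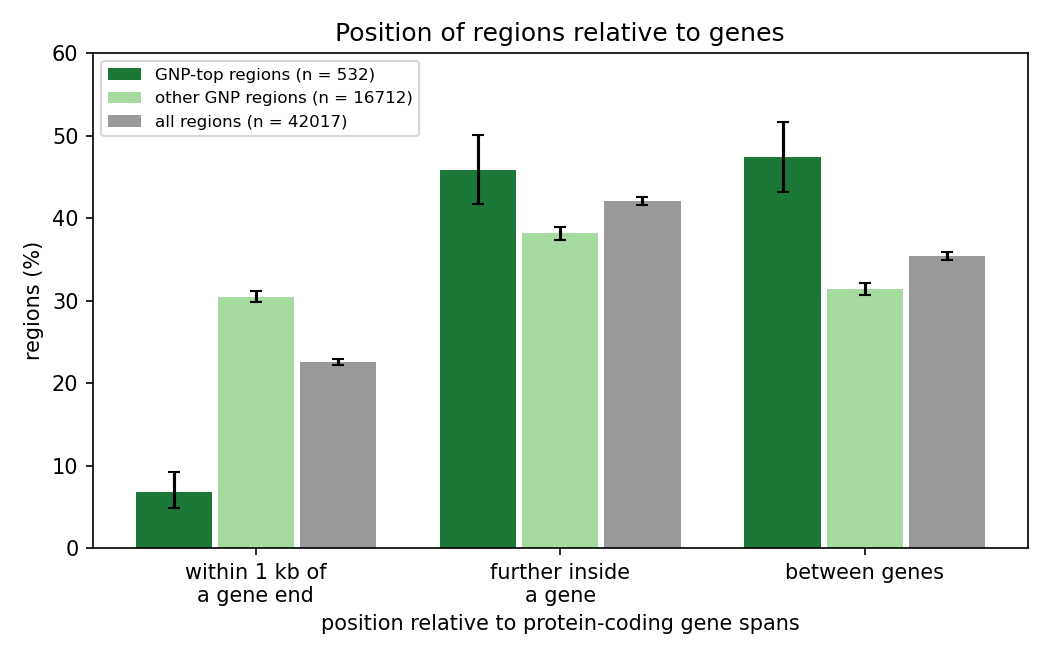
Share of regions within 1 kb of a gene end, inside genes and between genes, in percent, for GNP-top regions, the other regions with a top summit in at least 5 GNP libraries and all regions; bars start at 0 and error bars are 95% Wilson intervals. GNP-top regions have 6.77% at gene ends, against 30.5% of the other GNP regions.

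The median distance to the nearest gene end was 42050.5 bp for GNP-top regions, 11950.5 bp for the other GNP regions and 17213 bp for all regions. More than 100 kb from any protein-coding gene were 103 (19.4%) GNP-top regions, against 9.91% of the other GNP regions. The nearest gene was also longer, with a median span of 82148.5 bp against 52078 bp. The nearest region with a top summit in all 18 libraries was at a median of 98945.5 bp, against 75121.5 bp for the other GNP regions. GNP-top regions were scattered, with 26 pairs of neighbours within 100 kb of each other, 2 pairs within 10 kb and a smallest gap of 1205 bp. Per chromosome they made up between 1.55% (chromosome 6, 14 regions) and 3.98% (chromosome 5, 45 regions) of the regions with at least 5 GNP libraries, and 3.09% over all autosomes.

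Among the 53 regions with all 6 GNP libraries and no other, the 12 whose worst GNP rank was best are described here. The first lay inside Snd1 (chr6:28867959-28868215), which encodes a nuclease-domain protein found with the RNA silencing complex. GNP ranks there were 2989 to 9350 with a median of 6389.5, and 1 hyperplasia library listed a lower summit with a score of 3.99, while no tumor library listed any. The region inside Tnrc6b (chr15:80859364-80859804), a scaffold of microRNA silencing, had GNP ranks of 5658 to 10760 and lower summits in 4 hyperplasia libraries and 1 tumor library. The region at Olfr1121 (chr2:87371612-87372028), an olfactory receptor gene, lay within 1 kb of a gene end and had GNP ranks of 5778 to 11990.

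The next region of this group lay 206810 bp from Tox3, which encodes an HMG-box factor, and had GNP ranks of 7571 to 16244 with a median of 9275. A region 32759 bp from Atoh8 (chr6:72268378-72268701), a basic helix-loop-helix gene, had GNP ranks of 7412 to 18629. One at Npbwr1 (chr1:5916349-5917027), a receptor for neuropeptides B and W, had GNP ranks of 5602 to 18821 and lay 710 bp from a gene end. The remaining 6 lay inside Afp (alpha-fetoprotein), Zfyve28 and Gfi1b, and between genes, 5901 bp from Parva, 29871 bp from Pik3r4 and 686986 bp from the nearest gene, 1700015G11Rik. Their worst GNP ranks were between 18846 and 21794, and all 12 regions had at least 1 lower listed summit in hyperplasia, with scores up to 7.41. Of the 12 nearest genes, Gfi1b was in 1 of the 14 gene lists used here (medulloblastoma genes) and the others were in none.

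The 36 regions at gene ends are described by the 15 whose worst GNP rank was best, led by Olfr1121 and Npbwr1. Trmt112, which encodes a partner of RNA and protein methyltransferases, had a region 60 bp from a gene end (chr19:6909521-6909996) with GNP ranks of 4492 to 19722, and 1 hyperplasia library kept a top summit there with a score of 14.7. Skap2, whose promoter is printed above, had GNP ranks of 11642 to 22242, lower summits in 3 hyperplasia libraries and 1 tumor library, and no later top summit. Mapkapk3, a stress-activated kinase, had GNP ranks of 8370 to 24227 and 1 hyperplasia library with a top summit (score 10.2). Its lower summits in tumor had scores up to 7.41. Galnt3, an enzyme that starts O-glycans on proteins, had GNP ranks of 6324 to 25698 and 1 tumor library with a top summit. Arhgap39, a GTPase activator, and Zfp367, a zinc-finger gene, had median GNP ranks of 23109.5 and 22117, with 1 hyperplasia library each. Others were 4930447C04Rik, Pxt1, Nxph2, Gm536, Pdzd9 and Nhlh2, with median ranks of 10661 to 21886.

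Within 100 kb of a protein-coding gene, 429 GNP-top regions were given to 406 genes, which is 1.15% of the 37413 regions so placed and 2.77% of the 15485 with at least 5 GNP libraries. Most genes had 1 region, and 21 had 2 or more. Of the 406 genes, 207 also had a region in all 18 libraries, 93 had a region gained in hyperplasia or tumor, and 86 had the GNP-top region as the only one with at least 5 GNP libraries. Among the other regions of these genes with at least 5 GNP libraries, 5.02% of 1136 were lost in hyperplasia and 3.61% in tumor, against 3.53% and 2.92% of the 13920 such regions of other genes. These counts leave out the GNP-top regions in the genes that have one, and carry no test.

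Erc2, which encodes a scaffold protein of the presynaptic active zone, and Lsamp, which encodes a cell adhesion protein of the IgLON family, had 3 GNP-top regions each. Erc2 spans 856263 bp and had 13 regions, 5 of them with at least 5 GNP libraries. Its GNP-top regions lay 156.5, 245.4 and 362.7 kb from the end with the lower coordinate, each with 5 GNP libraries, and their median GNP ranks were 16662, 17850 and 21336. The region at 245.4 kb (chr14:27867531-27867848) had no top summit later, and the other 2 had 1 hyperplasia library each, with 1 tumor library at 156.5 kb. In the same gene the region at 73.8 kb held a top summit in all 18 libraries, and the one at 621.3 kb in 1 GNP, 0 hyperplasia and 5 tumor libraries. A region at 91.3 kb had 0 GNP, 1 hyperplasia and 5 tumor libraries.

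Lsamp spans 2197426 bp and had 31 regions, 11 of them with at least 5 GNP libraries. Its GNP-top regions lay 210.2, 332.1 and 1919.7 kb from the end with the lower coordinate, with 6, 5 and 5 GNP libraries and median GNP ranks of 21446, 14350 and 21991. At 210.2 kb (chr16:40194189-40194634) 0 hyperplasia libraries and 1 tumor library held a top summit. At 332.1 kb 1 of each did, and at 1919.7 kb 0 hyperplasia libraries and 1 tumor library did. The region at 429.1 kb held 0 GNP, 6 hyperplasia and 1 tumor library, and that at 1527.0 kb held 1 GNP, 6 hyperplasia and 6 tumor libraries. Both genes thus had regions of opposite patterns within one span.

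**Figure D5:**
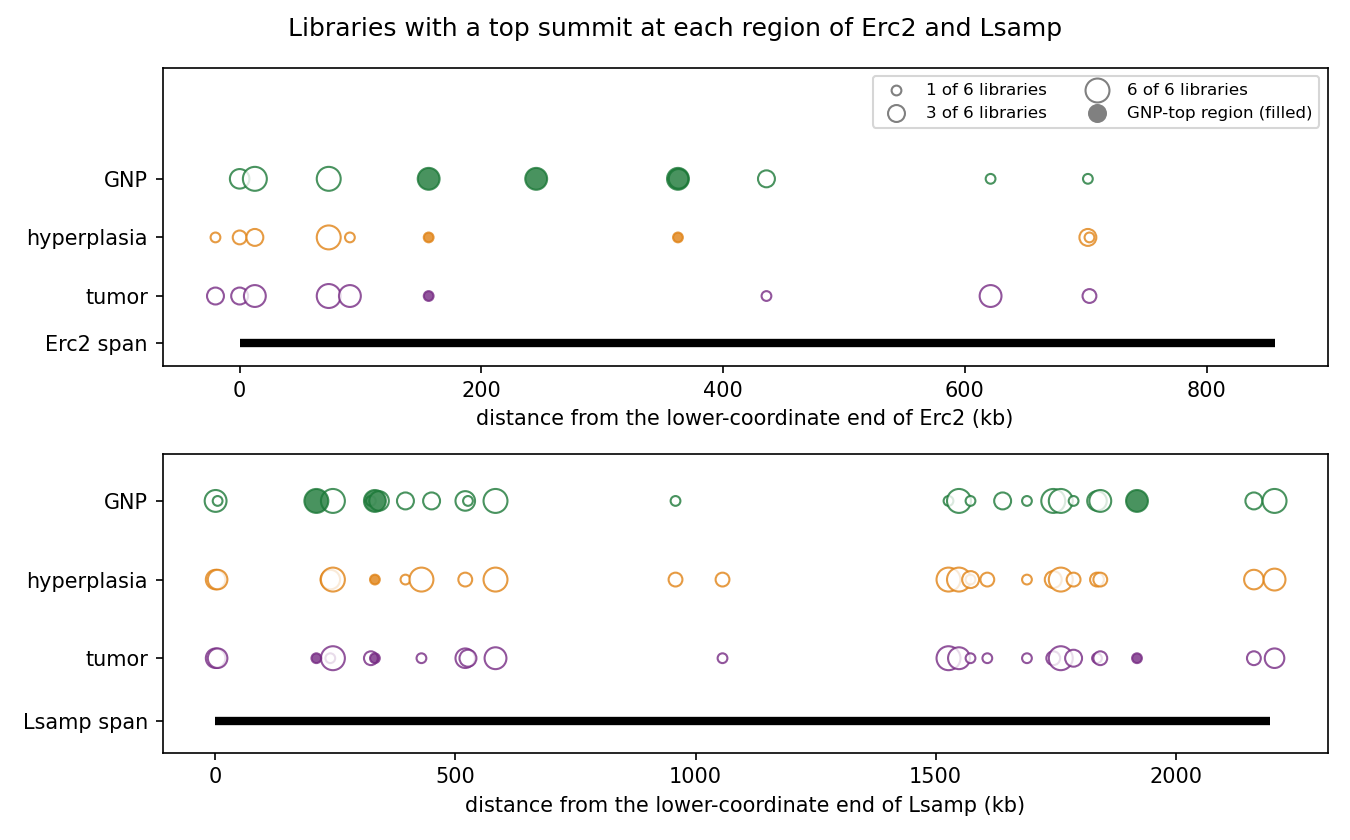
Regions of Erc2 (upper) and Lsamp (lower) by distance from the lower-coordinate end of the gene in kb; circle size is the number of the 6 libraries of GNP, hyperplasia or tumor with a top summit, and filled circles are GNP-top regions. Each gene has 3 GNP-top regions, with at most 1 library in hyperplasia and in tumor, among regions of several patterns, some with top summits in all 18 libraries and some with more libraries in the later stages.

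Genes with 2 GNP-top regions included Ahdc1, Aldh1a3, Arpp21, Bcl11b, Chrna7, Dscam, Edar, Galnt3, Grm4, Klhl29, Msra, Nav2, Ncald, Nfasc, Nrxn3, Tenm2 and Wwox. Aldh1a3, Bcl11b, Chrna7 and Galnt3 had no region in all 18 libraries and none gained. Aldh1a3, an enzyme of retinoic acid synthesis, had 2 of its 3 regions with at least 5 GNP libraries among the GNP-top ones, and Galnt3 both of its 2. Bcl11b, a zinc-finger factor, and Chrna7, a nicotinic acetylcholine receptor subunit, each had 2 of 4. These genes outside the naming rule were picked for their counts.

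Of the 7 GNP-top regions at genes of granule neuron differentiation, Grm4 and Nfasc had 2 each. They were 3.29% of the 213 regions of that list and 9.09% of its 77 regions with at least 5 GNP libraries, beside 1.15% and 2.77% over all genes. Snap25, a SNARE protein of vesicle release, had a region 13595 bp away (chr2:136699599-136700090) with all 6 GNP libraries at ranks of 8153 to 16996. It had 1 hyperplasia library and no tumor library with a top summit. Rbfox3, the splicing factor known as the neuronal marker NeuN, had a region inside the gene (chr11:118861303-118861737) with 5 GNP libraries at ranks of 12180 to 24469. In the later stages 5 hyperplasia libraries and 5 tumor libraries listed a summit there, with scores up to 5.51 and 5.48, and 1 hyperplasia library counted it among its top summits.

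Grm4, the metabotropic glutamate receptor of granule neuron axon terminals, had a region inside the gene (chr17:27424962-27425228) with 5 GNP libraries at ranks of 7073 to 19142. It had 1 hyperplasia library with a top summit (score 11.1) and no listed summit in any tumor library. Its second region lay 4956 bp outside the gene (chr17:27518612-27518952), with GNP ranks of 23174 to 29684. Nfasc and Nrcam encode adhesion proteins of the axon initial segment and node. The Nfasc regions had median GNP ranks of 19652 (inside, 1 tumor library) and 11433 (33264 bp outside, no later top summit). The Nrcam region (chr12:44547707-44548156) had 5 GNP libraries, ranks of 8580 to 25366 and no later top summit.

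Genes of granule progenitor identity had 3 GNP-top regions among 123 regions (2.44%), 48 of them with at least 5 GNP libraries (6.25%). At Nhlh2 the region lay 55 bp from a gene end (chr3:102009747-102010366), with 5 GNP libraries at ranks of 7923 to 21226 and 1 hyperplasia library. Inside Barhl2, a homeobox gene, a region (chr5:106454520-106455039) had 5 GNP libraries at ranks of 11692 to 27610 and no later top summit, although 4 hyperplasia and 4 tumor libraries listed a lower one. Inside Meis2, a homeobox gene of granule cells, a region (chr2:115895416-115895947) had all 6 GNP libraries at ranks of 15224 to 28599 and 1 tumor library. Lower summits stood there in several later libraries, as 5 hyperplasia and 5 tumor libraries listed one.

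The SHH pathway had 1 GNP-top region among 105 regions (0.952%), 49 with at least 5 GNP libraries (2.04%), and the shares over all genes were 1.15% and 2.77%. It lay inside Sufu, the inhibitor that holds GLI factors back (chr19:46434396-46434725), and its 5 GNP ranks, 26527 to 28933, were close to the last rank kept. No GNP-top region within 100 kb was nearest to Nfia, Nfib, Nfic or Nfix (0 of 76 regions, 31 with at least 5 GNP libraries). Nor was any nearest to a cell cycle gene of the list (0 of 67 regions, 29 with at least 5 GNP libraries). Both lists had regions in all 18 libraries, 19 at NFI genes and 15 at cell cycle genes. List counts stop at 100 kb from a gene, so GNP-top regions further away, with Shh or Mycn as the nearest gene, are not in them.

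Axon guidance and adhesion genes had 7 of 495 regions, at Cdh13, Dcc and Robo1 with 1 each and Nrxn3 and Tenm2 with 2 each. The best placed by median GNP rank was inside Nrxn3, a presynaptic neurexin (chr12:89198664-89199062), with ranks of 4897, 4979 and 5316 in 3 GNP libraries, 19052 and 28647 in 2, and none in the second NFIA library. The 2 Tenm2 regions, in a teneurin gene of synaptic adhesion, had median GNP ranks of 21012 and 19120.5 and 1 tumor library each. Ion channel and synapse genes had 4 of 321, at Cacna2d3, Dlg2, Kcnma1 and Shank2. The region inside Dlg2, a scaffold of the synapse, had 5 GNP libraries and 1 hyperplasia library with a top summit, and no tumor library listed any summit there. Shares of regions with at least 5 GNP libraries were 3.57% and 3.48% in these 2 lists, near the 2.77% over all genes.

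Genes mutated or activated in medulloblastoma had 3 of 123 regions, among them 1 at Arid1b and 1 at Gfi1b. Gfi1b, a zinc-finger repressor that is activated in some human medulloblastomas, had its region inside the gene (chr2:28611040-28611443) with GNP ranks of 5742 to 20810 and no later top summit. Lower summits were listed there in 3 hyperplasia libraries with scores up to 7.33 and in 4 tumor libraries with scores up to 5.61. Arid1b, a chromatin remodelling subunit, had 5 GNP libraries and no later top summit. Sox2, a factor of neural stem cells, had 1 region 77728 bp away with all 6 GNP libraries at ranks of 14427 to 28470 and 1 tumor library.

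Lists for other cell types of the cerebellum were small and held 2 GNP-top regions. There were 0 of 31 regions at astrocyte and Bergmann glia genes, 0 of 27 at oligodendrocyte lineage genes and 0 of 2 at microglia genes. Vascular and meningeal genes had 1 of 28, at Flt1, a receptor for vascular endothelial growth factor, and Purkinje cell and interneuron genes 1 of 38, at Pax2. These are 3.57% and 2.63% of the regions of those lists, beside 1.15% over all genes, each from 1 region. At Flt1 5 tumor libraries listed a summit, and 1 of them, with a score of 14.4, was a top summit. A part of cell mixture in the choice of the 532 was not tested.

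NFIA and NFIB libraries of GNPs were compared at the 17244 regions with a top summit in at least 5 GNP libraries, on minus log2 of the rank, where 1 unit is a halving of the rank and a library without a top summit takes the rank after the last one kept, the zero of the scale. limma called 0 of 17244 regions (0%) and 0 of the 532 at an adjusted p under 0.05. At an unadjusted p under 0.05 it had 658 regions (3.82%), 18 of them GNP-top (3.38%), with 11 higher for NFIA and 7 lower. The median NFIA minus NFIB difference was 0.03 over GNP-top regions and 0.00 over all tested. The lowest unadjusted p among GNP-top regions, named after its value was seen, was at a region nearest to Fgf12, with a mean of 0.13 for NFIA and 1.96 for NFIB, a difference of -1.82 (SE 0.58, n = 3 each) and an adjusted p of 0.9995 in limma. At Gpr39 the means were 1.89 for NFIA and 0.17 for NFIB, a difference of 1.72 (SE 0.58, n = 3 each), with the same adjusted p in limma. Neither passed the test. Regions with top summits for only NFIA or only NFIB could not be among the 17244. At least 5 GNP libraries were asked for, and each target had 3. Without that filter limma also called 0 of 42017 regions. With n = 3 each, a count of 0 does not show that NFIA and NFIB were alike.

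On log2 scores in place of ranks, limma called 11642 of 17244 regions (67.5%), all lower for NFIA, among them 334 GNP-top regions. The last top summit of the GNP libraries scored 4.05, 4.42 and 6.64 for NFIA and 7.80, 9.84 and 9.80 for NFIB. The part of this difference between whole libraries in the calls was not tested. The first NFIB and the third NFIA library of GNPs have data names with the other target. With both left out, limma called 33 of 17244 regions on ranks (0.191%), of which 0 were GNP-top. That run had fewer than 3 libraries of each target.

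The edge of the criterion was narrow, since 974 regions missed it by 1 library. Just inside were regions at Peli2 (6 GNP, 1 hyperplasia and 1 tumor library; GNP ranks of 1806 to 4722), Ano5 (6, 1 and 0; 911 to 5949) and Vps13d (6, 0 and 1; 2360 to 8774). Just outside were regions at Rragc (6 GNP, 2 hyperplasia and 1 tumor library; GNP ranks of 1797 to 3720), Scn10a (6, 1 and 2; 1352 to 5309) and Plxnc1 (6, 1 and 2; 1064 to 6514). The ranges of GNP ranks of the 3 inside and the 3 outside overlapped. Which regions counted also depended on the number of summits kept. With 15000 top summits per library the rule gave 315 regions, and 52 of the 532 overlapped 1 of them. With 20000 it gave 371 and overlapped 125, and with all listed summits it gave 575 and overlapped 17. With 1 GNP preparation left out, and at least 3 of the remaining 4 GNP libraries asked for, it gave 1155, 1136 and 1136 regions without preparations 1, 2 and 3.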

How the data were processed

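Reads of 18 CUT&Tag libraries went through Bowtie2 (build mm10) and MACS2, per the submitters' processing notes, without versions; whether peaks were called over a control is not stated in the sources used here. Each library has its own deposited list of 1-base summits, scored by the authors as −log10 p (lowest 2.00). Stage and target follow the titles; in 12 libraries the data name carries another replicate number.

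Ties in score were broken by chromosome and start. Regions were assigned to the nearest of 20661 RefSeq protein-coding gene spans (GRCm38.p6) within 100 kb; of 274 list genes 265 matched. Promoter windows are RefSeq's, none on chromosome 18; region sequence was not used here. Coordinates are 1-based.

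limma 3.58.1 (R 4.3.3; trend, Benjamini-Hochberg over 17244 regions, threshold 0.05) compared NFIA with NFIB and was tested on simulated data. Other steps used pandas 2.3.3, numpy 2.4.6 and SciPy 1.17.1 in Python 3.11.15, and matplotlib 3.10.9 for figures.

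Members, lists and tests were chosen with earlier results of these data known. Named were the 12 regions with 6 GNP and 0 other libraries and the best worst rank, 15 at gene ends, genes with at least 3 regions, list genes and the 3 best-ranked on each side of the criterion. Intervals cover counting error only. Some regions that the rule names are not reported here.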

Additional observations from a re-analysis of the deposited data

Results flagged for a closer look

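Of 75 groups of 4 to 10 libraries examined, 5 had 1 library far from the others by Dixon's criterion at 95%; chance gives about 1 group in 20. The second NFIA library of hyperplasia held a top summit at 65.0% of the other GNP regions, and the other 5 hyperplasia libraries at 85.4% to 87.2%. At the region inside Tnrc6b the first NFIA library of GNPs had rank 10760, and the others had 5658 to 7193. At the region inside Arid1b the same library had rank 10331, and the other 4 with a top summit had 24179 to 27501. The second NFIB library of GNPs had rank 8774 at the region inside Vps13d, where the others had 2360 to 4582. It also had rank 6514 at the region inside Plxnc1, just outside the criterion, where the others had 1064 to 2706.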

How the results depend on the processing

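The number of GNP-top regions, 532, stayed within 1.5 times under 18 of 25 settings. It was 315 with 15000 top summits, 53 with all 6 GNP libraries and no other, 2206 with at least 4 GNP and at most 2 libraries of each later stage, and 1448 with the first title date of GNP and hyperplasia. The second title date gave 496 and was chosen after seeing the data. A like number need not mean like regions, since 162 of the 532 overlapped the 496, 193 overlapped the 376 chosen from NFIA libraries alone and 235 the 424 from NFIB libraries alone. With 1 preparation left out it was 614 to 1155, where the criterion of fewer libraries is looser. Keeping regions hit by at least 1 or at least 5 libraries could not move the number. Every GNP-top region had at least 5, and both settings are among the 18.

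The share at gene ends, 6.77%, was 4.13% with 15000 top summits, 11.3% with all 6 GNP libraries and no other, and 12.6% with at least 4 GNP libraries. It was 11.7% with NFIA alone, 12.5% with NFIB alone, 12.6% with all genes of the table, 14.5% with 5 kb as the limit and 6.74% to 10.04% with 1 preparation left out. The share inside genes was 37.7% with the strictest criterion, 51.1% with all genes and 41.0% with 5 kb, and the share between genes 41.6% with at least 4 GNP libraries and 36.3% with all genes. With 1 preparation left out these were 44.6% to 47.3% inside and 43.8% to 46.7% between. The cause of these changes was not tested.

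A listed summit in 1 hyperplasia or tumor library beyond those the criterion counted stood at 98.5% of the 532, and at 99.6% within 500 bp. In left-out preparations, asking for all GNP libraries and no other gave 66.2% for GNP, 9.81% for hyperplasia and 12.9% for tumor, and 15000 top summits gave 58.0% for GNP.

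For NFIA against NFIB, limma called 0 regions on ranks, 0 to 2 with 1 preparation left out (2 without GNP preparation 3), 33 without libraries named for the other target and 11642 on log2 scores. With preparation as a replicate block it called 0. Same-numbered NFIA and NFIB libraries of GNPs had correlated deviations of 0.157, -0.192 and 0.0570, so not every pair deviated together and the numbers were not taken to pair them. Depth is unknown, which limits what absence of a summit shows.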

Other observations

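The X chromosome was outside the choice of regions. Treated the same way it had 706 regions, 259 with a top summit in at least 5 GNP libraries, of which 5 met the criterion (0.708% of its regions, against 1.27% on the autosomes).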
